A study of Mus musculus with 12 samples.

Results

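The S100 genes encode small calcium-binding proteins, and 8 of them that are transcribed in Schwann cells (SCs) of the sciatic nerve are described here: S100b, S100a1, S100a4, S100a6, S100a10, S100a11, S100a13 and S100a16. They were taken by symbol, as 8 of the 25700 genes of the count table. All 8 were among the 18597 genes with enough reads to be tested. The cells came from mice at postnatal day 5 (P5), when axon sorting and myelination are under way. Every mouse carried P0Cre-/+, ReYFP Tg/+ and βAct-DsRed Tg/+ on a C57bl/6J background, and no group lacked any of these alleles. The P0Cre transgene drives recombination in the Schwann cell lineage, so that eYFP marks cells in which the transgene has been active, whereas DsRed is driven by a ubiquitously active actin promoter. After enzymatic dissociation, eYFP-positive cells were sorted through 3 gates. The allSC gate took all eYFP-positive cells, the mSC gate those of high side scatter (SSC-A, a measure of granularity), assumed to be myelinating, and the nmSC gate those of low side scatter, assumed to be not myelinating. Each gate has 4 libraries, with a subject number from 1 to 4 in the labels that is read here as the number of the mouse, and sex is not given per mouse. RNA was read over whole transcripts by Smart-Seq2, with counts made of reads and not of molecules.

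S100 proteins carry a pair of EF-hands, helix-loop-helix motifs that bind calcium, and most of them work as dimers. Binding of calcium opens a hydrophobic face to which target proteins attach, among them annexins, cytoskeletal proteins and enzymes. S100b is the classic antigen by which Schwann cells and other glia are recognized in tissue, while S100a4 is better known from fibroblasts, leukocytes and motile cells. S100a10 differs from its relatives in that its EF-hands have lost the ability to bind calcium, and it is held in a stable complex with annexin A2.

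In the GRCm38 build of the mouse genome, annotated by GENCODE, S100b lies alone at chr10:76253853-76261159. The other 7 lie on chromosome 3, in the conserved S100 cluster. On its proximal side are S100a1 (chr3:90511034-90514392, minus strand), S100a13 (chr3:90514435-90524581), S100a16 (chr3:90537254-90543151), S100a4 (chr3:90603771-90606045) and S100a6 (chr3:90612882-90624181), followed by S100a11 (chr3:93520488-93526287) and S100a10 (chr3:93555080-93564643) about 3 Mb further on. All but S100a1 are on the plus strand. S100a1 and S100a13 stand head to head, and only the 42 bases of chr3:90514393-90514434 separate their annotated starts. This stretch (54.8% G and C) is read here on the strand of S100a13. It is shown with 250 bases upstream of the RefSeq starts (GRCm38.p6, plus strand) of 3 further members, chosen by their results. S100b had the largest difference between the gates, and the fitted differences of the neighbours S100a4 and S100a6 had opposite signs. In mouse 1, however, both neighbours were lower in mSC. Capitals mark the letters TATAAA, the core of a TATA box.
Between the starts of S100a1 and S100a13, chr3:90514393-90514434: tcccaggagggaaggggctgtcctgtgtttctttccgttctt
S100b, chr10:76253586-76253835: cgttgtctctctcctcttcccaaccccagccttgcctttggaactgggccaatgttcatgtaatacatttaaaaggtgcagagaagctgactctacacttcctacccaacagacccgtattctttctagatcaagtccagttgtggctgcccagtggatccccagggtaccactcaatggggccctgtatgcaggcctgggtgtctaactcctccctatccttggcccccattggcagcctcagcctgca
S100a4, chr3:90603520-90603769: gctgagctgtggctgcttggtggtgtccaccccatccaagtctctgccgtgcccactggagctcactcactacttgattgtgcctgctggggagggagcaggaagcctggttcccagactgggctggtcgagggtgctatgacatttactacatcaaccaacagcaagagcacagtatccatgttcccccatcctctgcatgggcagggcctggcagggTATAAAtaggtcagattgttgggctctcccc
S100a6, chr3:90612644-90612893: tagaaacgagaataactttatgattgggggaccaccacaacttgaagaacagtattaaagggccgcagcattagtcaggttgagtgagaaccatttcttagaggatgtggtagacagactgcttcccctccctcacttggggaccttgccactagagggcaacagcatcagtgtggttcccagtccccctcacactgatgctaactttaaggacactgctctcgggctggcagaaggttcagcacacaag

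RefSeq had promoter entries for 7 of the members, and S100a10 has none. S100a16 had 2 entries, of which only the first listed was searched. Both strands of these windows were searched for the letters ACAAAG and ACAATG (SOX factors), GGAATG (TEAD factors), TGANTCA (AP-1), GCGNGGGCG (EGR factors) and TATAAA. The TATAAA of S100a4 lies 31 to 26 bases upstream of its start, and these letters occur in 12.4% of the 32851 promoter windows of the same length. S100a11 holds TGANTCA at 136 to 130 and at 38 to 32 bases upstream, letters that 6.75% of all windows contain. No other match was found in the 7 windows, the one between S100a1 and S100a13 included. ACAAAG is present in 16.5%, ACAATG in 10.7%, GGAATG in 12.6% and GCGNGGGCG in 4.70% of all windows. These matches describe letters and say nothing about binding.

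The libraries held 10092477 to 14482001 counted reads in the allSC gate, 10777161 to 16918122 in the mSC gate and 8180927 to 13077387 in the nmSC gate. Levels are given as counts per 1000000 counts of the library (CPM) scaled by TMM, a method that sets the libraries level on the bulk of their genes, and 3 counts correspond to between 0.177 and 0.367 CPM before that scaling. The gates carried the markers of their names: the myelin genes Mbp, Pmp22, Prx, Mag and Ncmap were higher in mSC than in nmSC libraries, and Ngfr, Ncam1 and L1cam as well as the proliferation genes Mki67 and Top2a were lower.

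A property of the libraries bears on most of the S100 genes and is given before their values. Transcripts of 7 members are short, with a mean annotated length of 417 to 784 bases, against 1484 bases for S100b. Among 562 other protein-coding genes of at most 800 bases, the median deviation from the gate mean on the log2 scale was -0.63 in the mSC library of mouse 1 and 0.74 in that of mouse 4. It was 0.23 in the nmSC library of mouse 1, -0.19 in the nmSC library of mouse 4, -0.14 in the allSC library of mouse 1 and within 0.1 of 0 in the other 7 libraries. Medians of 8776 longer genes lay between -0.09 and 0.07 in all 12 libraries. The 7 short S100 genes were below their gate mean in mSC library 1 and above it in mSC library 4 and in nmSC library 1, in every case. Results are therefore given as counted and, where stated, after subtracting from each library its trend of expression against transcript length, an alternative chosen after the data had been seen.

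**Figure D1:**
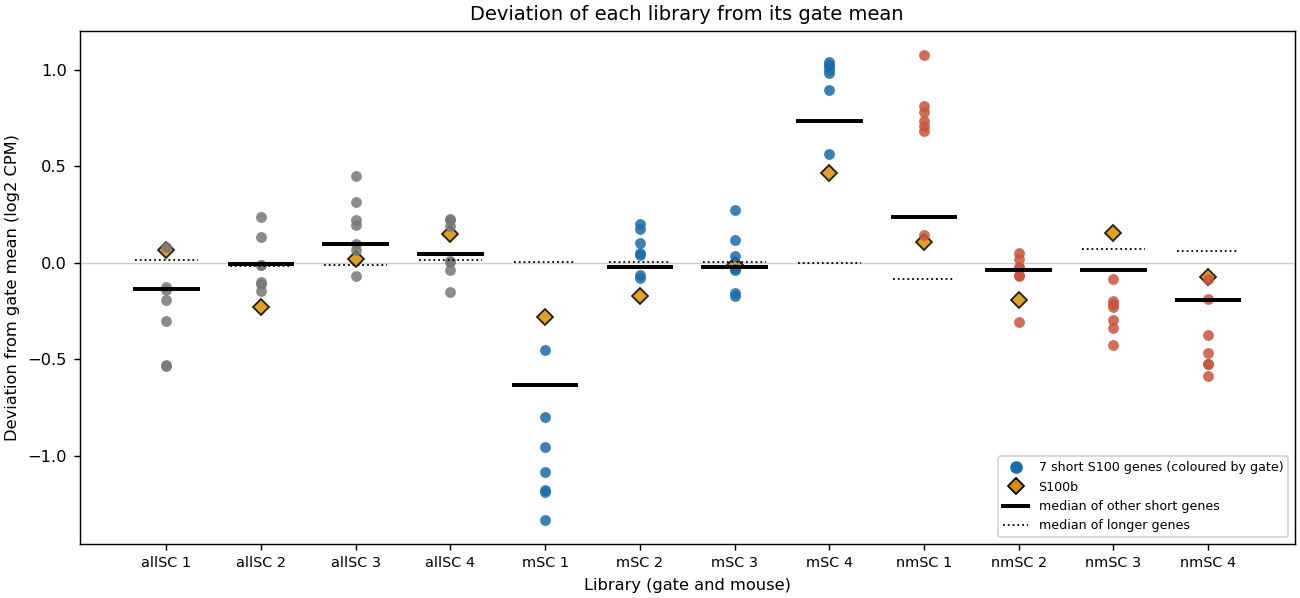
Deviation of every library (x axis, gate and mouse) from the mean of its gate, in log2 CPM (y axis), for the 7 short S100 genes (circles, coloured by gate), S100b (diamonds), the median of 562 other short genes (thick line) and the median of 8776 longer genes (dotted line). The short S100 genes sit low in mSC library 1 and high in mSC library 4 and nmSC library 1, on the same side as the other short genes, while S100b moves less in these libraries.

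mSC against nmSC asks which S100 genes separate the assumed myelinating cells from the rest. S100b and S100a1 were several-fold higher in the mSC gate, S100a4 was more than 3-fold lower, and S100a6 and S100a16 were moderately higher. In total 5 of the 8 members passed the test (edgeR's quasi-likelihood test over the 12 libraries, Benjamini-Hochberg adjusted p under 0.05), 4 of them higher and 1 lower in mSC. Among all tested genes 40.5% passed, 20.4% higher and 20.2% lower. The ranges of 3 members did not overlap between the gates, against 34.2% of all tested genes. The members' median difference was 0.72 on the log2 scale, and that of all tested genes -0.16.

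S100b was expressed at 215, 231, 259 and 361 CPM in the mSC libraries of mice 1 to 4, against 34.4, 27.8, 35.4 and 30.2 CPM in their nmSC libraries. The allSC libraries lay in between, at 122, 99.6, 119 and 130 CPM. No 2 gates overlapped. S100b was 8.33-fold higher in mSC than in nmSC (log2 difference 3.06, SE 0.167, edgeR adjusted p = 3.05e-11) and higher in 4 of 4 mice. Being bulk measurements, these values cannot tell fewer cells that express a gene from less of its RNA per cell. Both other comparisons were also called, with allSC below mSC by a log2 difference of -1.18 (adjusted p = 1.90e-05) and above nmSC by 1.88 (adjusted p = 9.01e-08). The minus-strand gene Dip2a overlaps S100b but shares no exon base with it.

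S100a1, best known from heart and skeletal muscle, where it regulates the calcium pump and release channel of the sarcoplasmic reticulum, followed the same order at a lower level per length. Its mSC libraries of mice 1 to 4 held 15.1, 32.4, 26.6 and 62.2 CPM, the nmSC libraries 10.7, 4.77, 5.16 and 5.28 CPM and the allSC libraries between 13.9 and 17.8 CPM. The nmSC library of mouse 1 stood clear of the other 3, yet mSC and nmSC did not overlap. The difference was 5.27-fold (log2 2.40, SE 0.336, edgeR adjusted p = 1.08e-05), with 4 of 4 mice higher in mSC. The difference was largest in mouse 4 and smallest in mouse 1, with log2 ratios of 3.56 and 0.50. S100a1 was also lower in allSC than in mSC (-1.12, adjusted p = 0.0190) and higher in allSC than in nmSC (1.28, adjusted p = 0.0164), but neither call held in every set of libraries. The first was lost without allSC library 1, allSC library 2 or mSC library 4 (-1.07 to -0.69, adjusted p = 0.0518 to 0.0590), with library size alone (-0.77, adjusted p = 0.0746) and with library size without the 50 top genes (-0.88, adjusted p = 0.0585), and the second without allSC library 4 or nmSC library 2, 3 or 4 (1.17 to 1.21, adjusted p = 0.0506 to 0.0659).

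S100a4, which binds non-muscle myosin and promotes motility, ran the other way. It was measured at 6.32, 14.7, 19.0 and 31.7 CPM in the mSC libraries of mice 1 to 4 and at 98.4, 56.3, 47.7 and 45.1 CPM in the nmSC libraries. The allSC libraries had 31.0, 35.5, 52.9 and 37.5 CPM. The mSC and nmSC ranges did not overlap, and mice 1 and 4 marked the extremes in both gates. S100a4 was lower in mSC by a log2 difference of -1.81 (SE 0.340, edgeR adjusted p = 0.000292), in 4 of 4 mice, and higher in allSC than in mSC by 1.15 (adjusted p = 0.0239). The size of the first depended on mouse 1, without which it was -1.20 (adjusted p = 3.00e-04). The second was lost without mSC library 2 (1.04, adjusted p = 0.0778), mSC library 3 (1.14, adjusted p = 0.0538) or allSC library 3 (0.96, adjusted p = 0.0881), and with DESeq2's Wald test (1.07, adjusted p = 0.0639).

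S100a4 shares 302 of its 584 exon bases with Gm42674, an annotated protein-coding gene on the same strand. The counts of Gm42674 amounted to between 71.4% and 100% of those of S100a4 in the 12 libraries, with 93 and 93 counts in mSC library 1, so reads of these genes cannot be told apart and the values of both are uncertain. S100a4 is also a common marker of fibroblasts. The summed level of 5 fibroblast markers was 6859 to 7314 CPM in allSC, 888 to 2250 CPM in mSC and 9404 to 14271 CPM in nmSC libraries, made up almost wholly of the collagen genes Col1a1 and Col3a1, which were lower in mSC (log2 -2.12 and -3.17, adjusted p = 1.50e-07 and 1.53e-09). The remaining 3 were at low levels. Pdgfra had 2.34 and 2.35 CPM, Dcn 12.8 and 8.49 CPM and Lum 5.01 and 2.18 CPM in mSC and nmSC, none passed the test, and no marker of the list was at 0 in a whole gate. Macrophage markers summed to 14.1 to 27.9 CPM and neutrophil markers to at most 4.09 CPM over the 12 libraries. The part of other cells in the result was not tested.

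S100a6 (calcyclin), a partner of the ubiquitin ligase component Cacybp, had the highest level of the 8 per mean transcript length. Its mSC libraries of mice 1 to 4 gave 83.0, 238, 229 and 434 CPM, the nmSC libraries 217, 97.3, 75.9 and 67.8 CPM and the allSC libraries 91.6, 132, 166 and 156 CPM. In mice 2, 3 and 4 the level was higher in mSC (log2 ratios of 1.29, 1.59 and 2.68), whereas in mouse 1 it was lower (-1.39), and the gates overlapped. The gates differed 2.15-fold (log2 1.10, SE 0.381, edgeR adjusted p = 0.0273). With the mouse number as a block the difference was 1.02 and no longer passed (adjusted p = 0.0828), and the same held without mSC library 4 (0.69, adjusted p = 0.0996) or without nmSC library 2, 3 or 4 (0.93 to 1.04, adjusted p = 0.0733 to 0.0874). Without mouse 1 it was 1.90 (adjusted p = 7.12e-07), and with library size alone in place of TMM 0.47 (adjusted p = 0.283).

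S100a16, a widely expressed member, varied least among the short ones. It was read at 72.4, 102, 89.0 and 147 CPM in the mSC libraries, at 73.8, 67.5, 63.0 and 62.9 CPM in the nmSC libraries and at 79.4, 82.5, 71.5 and 67.4 CPM in the allSC libraries of mice 1 to 4. Only mouse 1 failed to show the higher mSC level, with a log2 ratio of -0.03. The difference was 1.53-fold (log2 0.62, SE 0.170, edgeR adjusted p = 0.00724), but 0.03 on the log2 scale with library size alone (adjusted p = 0.888), a scaling that lowered the median of all tested genes from -0.16 to -0.73. Relative to that median S100a16 was higher by 0.78 with TMM and by 0.75 with library size.

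S100a10, S100a11 and S100a13 did not pass the test between mSC and nmSC. S100a10, the light chain of the annexin A2 complex, had 44.7, 99.2, 98.4 and 193 CPM in mSC and 99.9, 61.1, 54.0 and 44.7 CPM in nmSC libraries (log2 difference 0.74, SE 0.303, edgeR adjusted p = 0.0580). S100a11, a binding partner of annexin A1, had 5.16, 15.1, 12.7 and 27.5 CPM in mSC and 28.3, 15.8, 13.5 and 10.9 CPM in nmSC libraries (-0.20, SE 0.347, adjusted p = 0.667). S100a13, which takes part in the release of Fgf1 from cells, had 3.47, 6.44, 6.60 and 13.5 CPM in mSC and 8.17, 4.43, 3.14 and 2.64 CPM in nmSC libraries (0.70, SE 0.376, adjusted p = 0.144). In all 3 the mSC values of mouse 1 were the lowest and its nmSC values the highest, so that the ranges overlapped widely. Without mouse 1, S100a10 (1.29, adjusted p = 9.30e-05) and S100a13 (1.36, adjusted p = 0.00128) passed and S100a11 turned to a positive value that did not (0.45, adjusted p = 0.150). S100a10 and S100a13 also passed with either the mSC or the nmSC library of mouse 1 left out alone (1.02 and 1.03, 0.96 and 1.12). With all libraries S100a10 passed with DESeq2's size factors in edgeR (0.81, adjusted p = 0.0382) or without a filter on low counts (0.78, adjusted p = 0.0346), and S100a11 with library size alone (-0.82, adjusted p = 0.0494). The counts of S100a11 could in addition include reads of its processed pseudogene S100a11-ps, since the treatment of reads that map to several places is not stated.

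**Figure D2:**
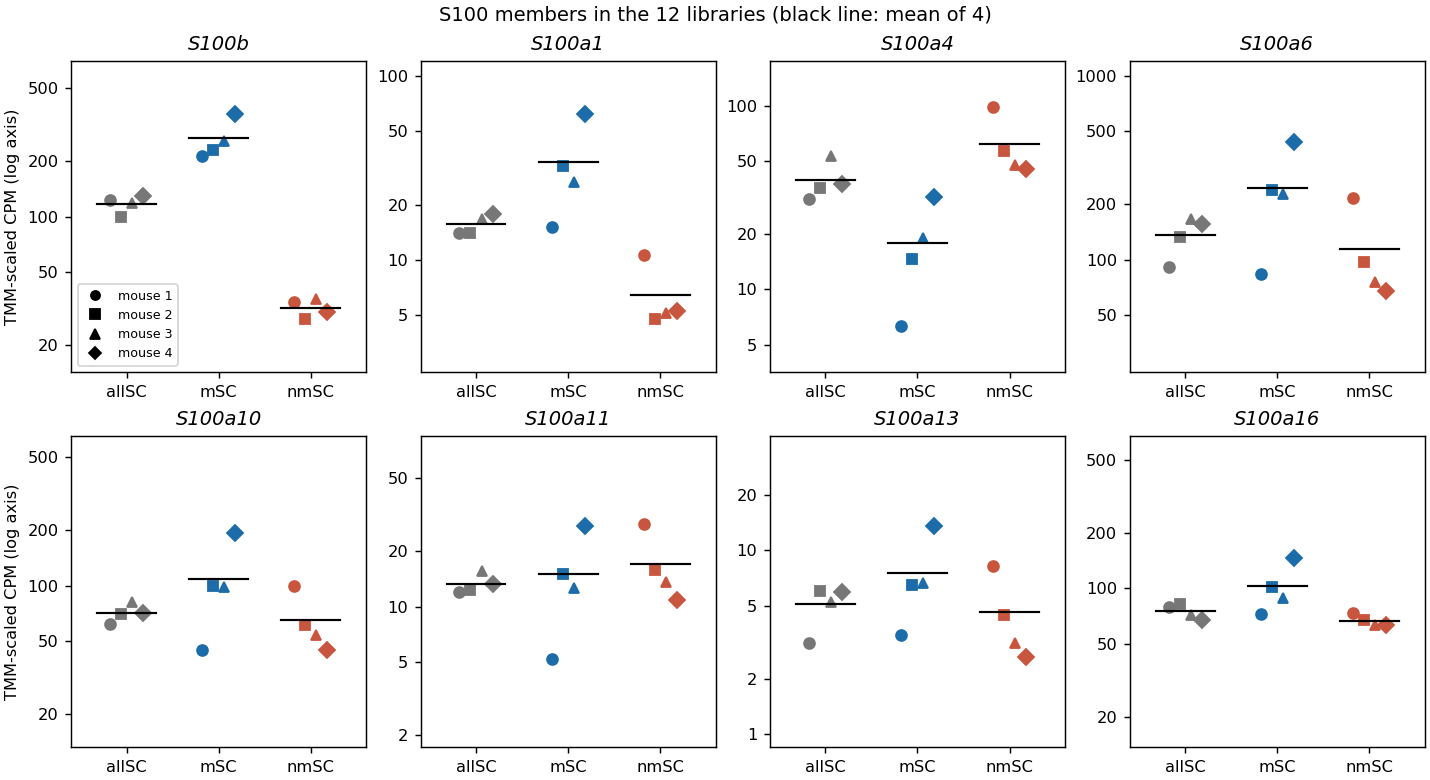
TMM-scaled CPM on a log axis of the 8 S100 genes in the allSC (grey), mSC (blue) and nmSC (red) libraries, with a marker shape for each mouse and a line at the mean of the 4 libraries. S100b and S100a1 separate mSC from nmSC upwards and S100a4 downwards, while mouse 1 (circles) lies low in mSC and high in nmSC for the short genes.

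The size of these differences can be set beside that of other short genes. In mouse 1 the median log2 ratio of mSC to nmSC was -0.63 for the 562 short genes and 0.24 for the 8776 longer ones, in mouse 2 it was 0.30 and 0.22, in mouse 3 0.32 and 0.13, and in mouse 4 1.23 and 0.10. S100a10, for example, had ratios of -1.16, 0.70, 0.87 and 2.11 in mice 1 to 4, lowest and highest in the same mice as the short genes. After the correction for length the SE fell for all 8 members, from between 0.167 and 0.381 to between 0.109 and 0.269. Of the 8 members 7 passed the test, 5 higher and 2 lower in mSC. Among all 18597 tested genes 8093 passed, 3087 higher and 5006 lower in mSC. S100b (2.86), S100a1 (2.03) and S100a4 (-2.09) stayed far from 0. S100a6 stood at 0.78 (edgeR adjusted p = 0.00329), S100a10 at 0.39 (adjusted p = 0.0185), S100a16 at 0.28 (adjusted p = 0.0416) and S100a11 at -0.52 (adjusted p = 0.0129), and S100a13 did not pass (0.36, adjusted p = 0.277). The correction also moved the median of all genes, from -0.16 to -0.30.

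With mSC libraries 1 and 4 left out, the 2 whose short genes deviated by more than 0.5 on the log2 scale, S100b was 2.96, S100a1 2.22, S100a4 -1.85, S100a6 1.05 and S100a16 0.53 on the log2 scale, all 5 passing, together with S100a10 at 0.63 (edgeR adjusted p = 0.0184). S100a11 (-0.27, edgeR adjusted p = 0.417) and S100a13 (0.55, adjusted p = 0.215) did not pass. In that fit mSC rested on libraries 2 and 3 alone. Among all genes 3868 were called higher and 3733 lower in mSC, against 3792 and 3748 of 18597 tested genes with all libraries.

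**Figure D3:**
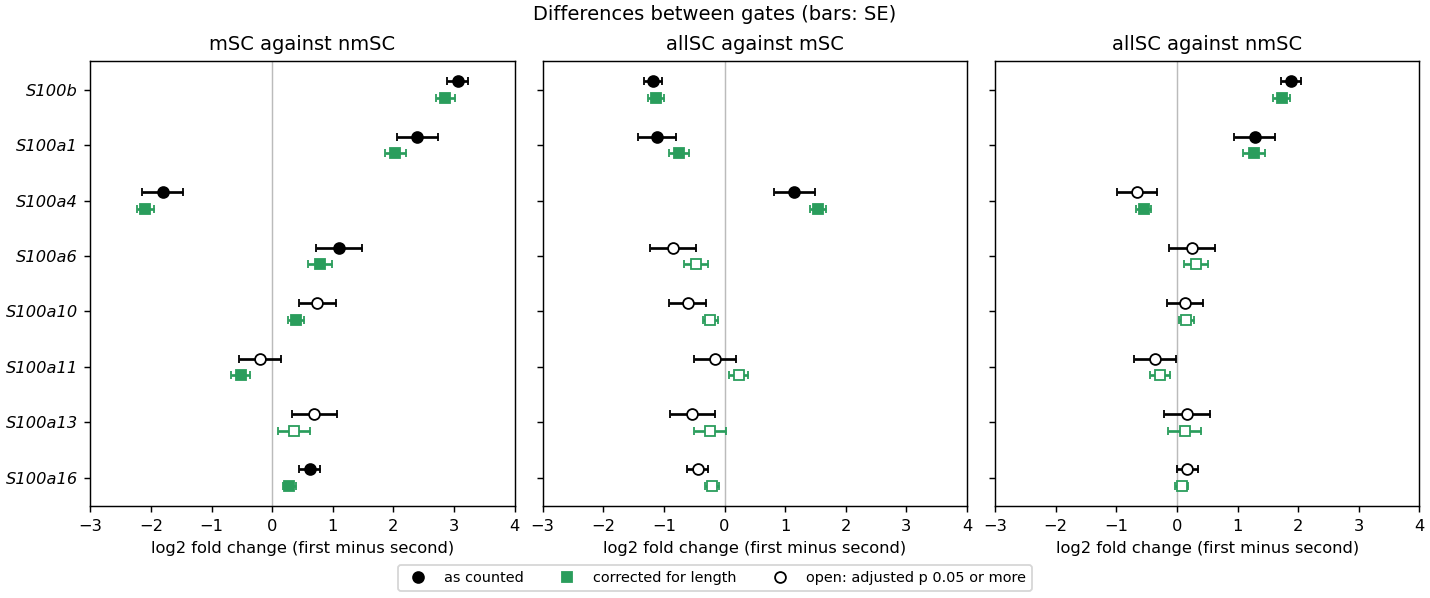
Log2 fold changes of the 8 S100 genes (points) with their SE (bars) in the 3 comparisons of gates, as counted (black circles) and after the correction for transcript length (green squares), with open symbols where the adjusted p was 0.05 or more. The mSC against nmSC differences of S100b, S100a1 and S100a4 stand clear of 0 in both, and the SEs are shorter after the correction.

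Neighbouring members of like length can be compared within a library, where normalization does not enter and a shift common to short genes cancels only in part. The log2 ratio of counts was taken for 3 pairs of neighbours. They were chosen after the values had been seen, so the ratios are a description with no test. S100a1 was expressed over S100a13, its head-to-head partner, by a log2 ratio of 2.12, 2.33, 2.01 and 2.21 in the mSC libraries of mice 1 to 4, but by only 0.39, 0.11, 0.72 and 1.00 in the nmSC libraries. The means were 2.17 ± 0.137 (SD, n = 4) and 0.55 ± 0.389 (SD, n = 4), and these gates did not overlap. In the GENCODE annotation both genes start at the ends of the 42 bases shown above. The upstream window of S100a1 by RefSeq is chr3:90514331-90514580, so by RefSeq the starts lie farther apart.

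The ratio of S100a6 to S100a4 lay at 3.72, 4.02, 3.59 and 3.77 in mSC and at 1.14, 0.79, 0.67 and 0.59 in nmSC libraries. This was the widest separation of the 3 pairs, with means of 3.77 ± 0.181 and 0.80 ± 0.243 (SD, n = 4 each). The allSC mean was 1.79 ± 0.225 (SD). The overlap of S100a4 with Gm42674 makes this ratio uncertain. S100a10 over S100a11 gave 3.11, 2.71, 2.96 and 2.81 in mSC and 1.82, 1.96, 2.00 and 2.04 in nmSC libraries, with means of 2.90 ± 0.175 and 1.95 ± 0.0930 (SD, n = 4 each). For each of the 3 pairs the mSC ratio was higher in 4 of 4 mice. The differences were 1.61 for S100a1 over S100a13, 2.98 for S100a6 over S100a4 and 0.95 for S100a10 over S100a11 on the log2 scale. Of these differences the fitted trend against transcript length made up -0.02, 0.06 and 0.03, although in single libraries it differed between the genes of a pair by up to -0.37.

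**Figure D4:**
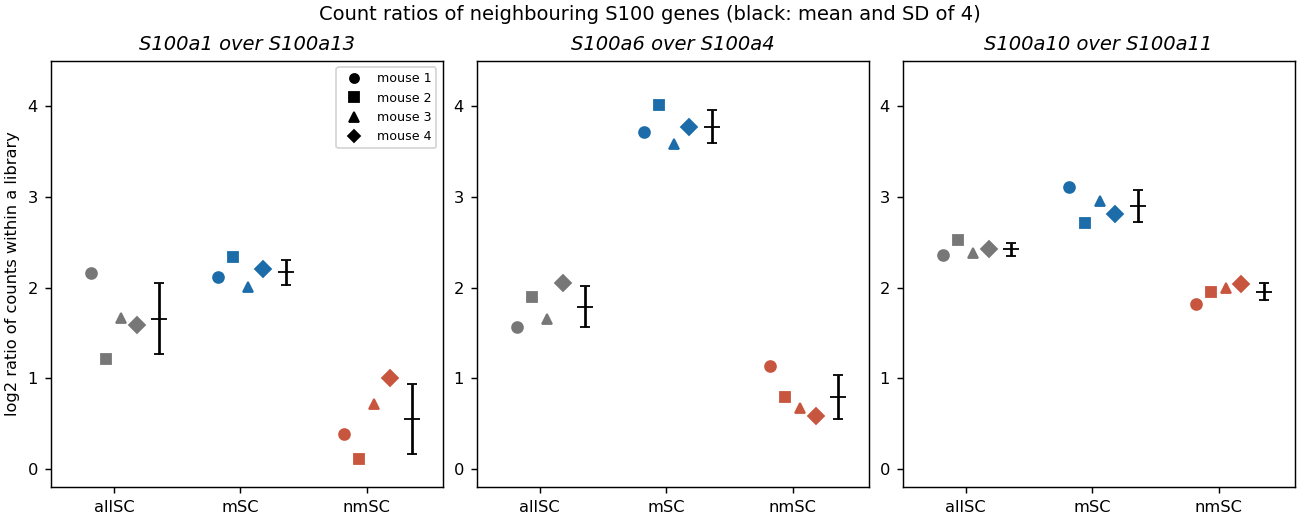
Log2 ratio of the counts of 2 neighbouring S100 genes within each library (y axis) by gate (x axis), with a marker shape for each mouse and the mean and SD of 4 libraries in black. In all 3 pairs the mSC libraries lie above the nmSC libraries without overlap.

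The allSC gate takes in the cells of both other gates. The comparisons are not independent, since all gates carry the same subject numbers and the libraries of each gate enter 2 of them. Between allSC and mSC 3 of 8 members passed the test, S100b and S100a1 lower and S100a4 higher in allSC, against 17.6% of all tested genes (8.76% lower and 8.80% higher). S100a6 (log2 -0.85), S100a10 (-0.61), S100a13 (-0.53), S100a16 (-0.45) and S100a11 (-0.16) were not called (edgeR adjusted p = 0.0767 to 0.782), and only S100b did not overlap (22.5% of all tested genes). Leaving out mSC library 1 brought the count to 6 of 8, with S100a6 at -1.16, S100a10 at -0.89 and S100a16 at -0.60, while all genes called rose from 3266 to 4204. Between allSC and nmSC 2 of 8 members passed, S100b and S100a1, both higher in allSC and without overlap, against 10.4% called (7.54% higher and 2.83% lower) and 19.3% not overlapping among all tested genes. The other 6 had differences of -0.66 to 0.25, the lowest in S100a4 (adjusted p = 0.259), which passed after the correction for length (-0.55, adjusted p = 0.00550).

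Placed on a scale from the nmSC mean (0) to the mSC mean (100%) of CPM, allSC stood at 36.5% for S100b, 33.1% for S100a1, 51.6% for S100a4, 16.5% for S100a6 and 23.4% for S100a16. For comparison, 1704 genes were called between mSC and nmSC with a change of at least 2-fold and a mean of at least 10 CPM. Their median was 43.9%, with quartiles of 38.9% and 49.6%. S100a16, with its 1.53-fold change, is not part of that set. The positions moved with single libraries, from 34.0% to 42.2% for S100b, from 26.9% (without mSC library 1) to 50.1% (without mSC library 4) for S100a1, from 33.1% (without nmSC library 1) to 62.0% for S100a4, from 5.33% (without nmSC library 4) to 33.7% (without nmSC library 1) for S100a6 and from 16.6% to 39.8% (without mSC library 4) for S100a16.

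Compared per length, as CPM divided by the mean annotated transcript length in kilobases (RPKM), S100a6 led in each gate and S100a13 came last. With the union of exons as length S100a4 (106) stood above S100a6 (83.7) in nmSC, and S100a6 and S100b were level in mSC (180 each). In mSC libraries the order was S100a6 (425), S100a10 (184), S100b (180), S100a16 (131), S100a1 (54.3), S100a4 (43.0), S100a11 (29.6) and S100a13 (10.5), and no neighbours in this order were separated by their ranges. In nmSC libraries it was S100a6 (198), S100a4 (148), S100a10 (110), S100a16 (85.2), S100a11 (33.5), S100b (21.5), S100a1 (10.3) and S100a13 (6.43), with S100a16 clear of S100a11 and S100b clear of S100a1. By mean transcript length S100b went from the third place in mSC to the sixth in nmSC, and S100a4 from the sixth to the second. The level of S100a4 is uncertain because of its overlap with Gm42674. In allSC libraries S100a6 (235), S100a10 (120), S100a16 (95.9), S100a4 (94.0), S100b (79.2), S100a11 (26.0), S100a1 (24.9) and S100a13 (7.11) followed each other, with gaps after S100a6, S100b and S100a1. Spread within mSC libraries was narrow for S100b (coefficient of variation 24.6%) and S100a16 (31.2%) and between 56.5% and 61.3% for the other 6.

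The root mean square (RMS) distance between centred log2(CPM + 1) profiles over the 12 libraries describes likeness. S100a10 and S100a13 were closest among the members (0.18), followed by S100a6 and S100a10 (0.26), while S100b and S100a4 were farthest apart (2.03). Over the 9404 genes with a mean of at least 10 CPM, the 3 profiles nearest to S100b were those of Pla2g7 (0.10), Ccn3 (0.15) and Cd9 (0.15), a tetraspanin of the cell surface. Those nearest to S100a1 were Mgst3 (0.15), Hspb2 (0.15) and Cdkn1a (0.23), and nearest to S100a4, after the overlapping Gm42674 (0.14), Cks1b (0.19), a cofactor of cell cycle kinases, and Selenoh (0.23).

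Several of the profiles closest to the remaining members belonged to short genes of general function. Mt1, Ndufa6 and Cox8a (0.12 to 0.15) were nearest to S100a6, Dynlrb1, Cstb and Acot13 (0.07 to 0.10) to S100a10, Dbi, Banf1 and Rps13 (0.10 to 0.11) to S100a11 and 2410015M20Rik, Map1lc3a and Scand1 (0.13 to 0.16) to S100a13. Creld2, Grpel1 and Sra1 (0.09 to 0.10) were nearest to S100a16. The genes named for S100a6, S100a10, S100a11 and S100a13 had mean transcript lengths of 434.5 to 915 bases, apart from Rps13 with 1173, and the part that the shift of short genes has in these likenesses was not tested.

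Around the members of chromosome 3, 11 other tested genes start within 100 kb, with a median difference of -0.17. Of these 3 were higher in mSC than in nmSC and 2 lower, against 20.4% and 20.2% of all tested genes. S100a3, a further family member that lies between S100a16 and S100a4, had a larger difference than any chromosome 3 member. It was at 60.1 ± 8.61 CPM in mSC, 8.82 ± 1.18 CPM in nmSC and 30.2 ± 5.98 CPM in allSC libraries (SD, n = 4 each), a log2 difference of 2.76 between mSC and nmSC (SE 0.172, edgeR adjusted p = 1.78e-10). Snapin (0.85) and Tchh (1.32) were the others higher in mSC, and Gm42674 (-1.57) and Gm38207 (-1.16) the 2 lower. S100a4, lower in mSC, thus stood between S100a3 and S100a6, both higher, although the call of S100a6 did not hold under every scaling.

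**Figure D5:**
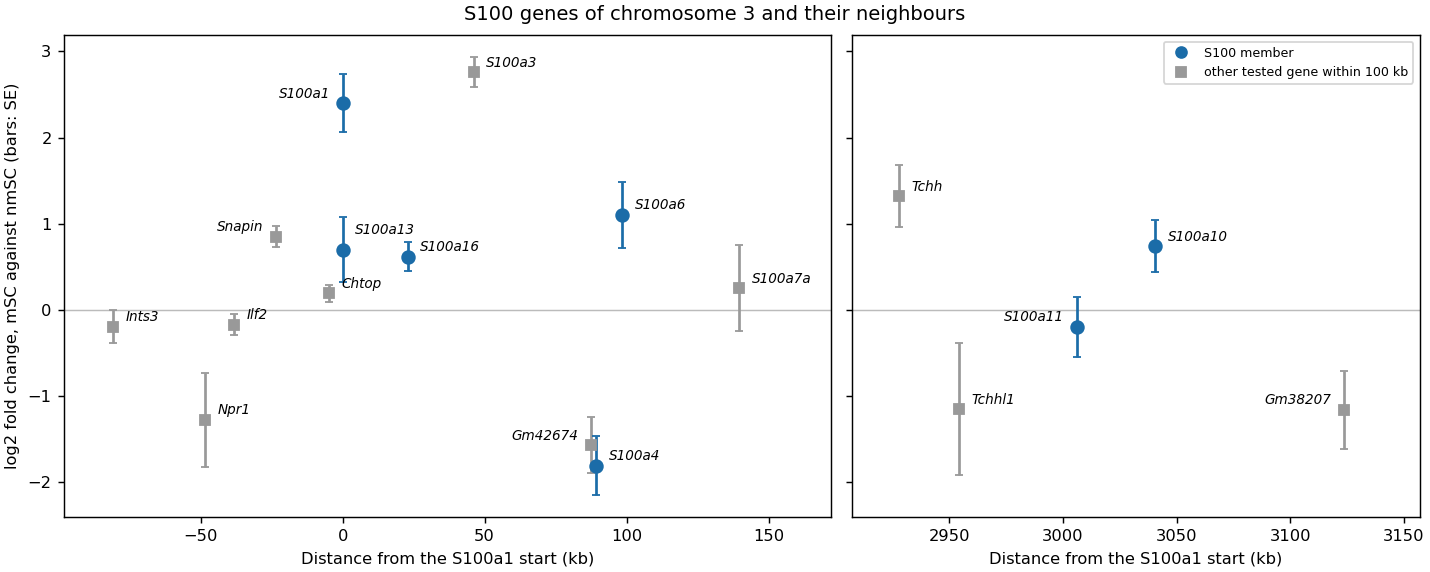
Log2 fold change of mSC against nmSC (y axis, bars are SEs) by the distance of the gene start from that of S100a1 in kb (x axis, in 2 windows of chromosome 3), for S100 members (blue circles) and other tested genes within 100 kb (grey squares). S100a1 and S100a3 stand above 2, S100a4 with the overlapping Gm42674 below -1, and S100a13 well below S100a1 at the same position.

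Of 10 other S100 genes that were looked up, 9 were in the table and 2, S100a3 and S100a7a, had enough reads to be tested. S100a7a did not pass. S100a8 and S100a9, the calgranulins of neutrophils, had means of at most 0.344 and 0.446 CPM in any gate. Of 11 tested annexins, membrane-binding proteins to which several S100 dimers attach, 5 were higher and 1 lower in mSC than in nmSC libraries. All tested genes gave 20.4% higher and 20.2% lower. The median of the annexins was 0.33, against -0.16 for all tested genes. With library size alone 3 annexins were higher and 4 lower. Anxa2, the partner of S100a10, was at 1269 ± 268 CPM in mSC and 712 ± 77.3 CPM in nmSC (SD, n = 4 each) and rose by 0.83 on the log2 scale (edgeR adjusted p = 6.78e-05). Anxa3 (1.68), Anxa4 (1.15) and Anxa7 (0.76) were also higher, whereas Anxa5 (0.26, adjusted p = 0.0817) and Anxa6 (-0.07, adjusted p = 0.708) did not pass.

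Among 33 tested binding partners of S100 proteins, 9 were higher and 8 lower in mSC, against 20.4% and 20.2% of all tested genes. The median of the partners was -0.02, and with library size alone 4 of them were higher and 21 lower. The enzymes Aldoc (3.96), Pgm1 (2.47) and Aldoa (1.36) of sugar metabolism and the growth factor Fgf1 (2.05) rose most among those with at least 10 CPM. Fgf1, which leaves cells together with S100a13, was at 327 ± 73.3 CPM in mSC and 78.9 ± 4.25 CPM in nmSC libraries (SD, n = 4 each). Lower in mSC were Myh10 (-2.00), the heavy chain of a non-muscle myosin, the microtubule protein Mapt (-1.10), the tumour suppressor Trp53 (-0.76) and the scaffold Iqgap1 (-0.41). Ager, the receptor of extracellular S100b, was low in both gates, with 1.84 CPM in mSC and 3.48 CPM in nmSC (-0.94, edgeR adjusted p = 0.0403). Cacybp rose by 0.44 (adjusted p = 0.0135), and Ahnak, which binds the S100a10 complex, did not pass (0.20, adjusted p = 0.247).

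Other EF-hand proteins were higher in mSC for 16 of 27 tested and lower for none, against 20.4% and 20.2% of all tested genes. Their median was 0.61, whereas with library size alone 5 were higher and 8 lower. Relative to the median of all tested genes, the median of these 27 genes was higher by 0.76 to 0.78 under all 4 other scalings tried. After the correction for length 12 were higher and none lower, with a median of 0.28, which was 0.58 above that of all genes. They included the myosin light chain Myl9 (2.22), the mitochondrial Efhd1 (2.04), the penta-EF-hand protein Gca (1.55) and Chp1 (1.15), a cofactor of sodium-proton exchangers.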

How the data were processed

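RNA of sciatic nerve SCs from P5 mice was measured in 12 libraries, 4 per gate (allSC, mSC, nmSC), which the sample labels give together with a subject number, read here as the mouse. According to the submitters' processing notes, the authors used bcl2fastq, STAR 2.6.1c, featureCounts and the GRCm38.p5 build, whereas the methods name a human build. They deposited raw counts per gene. The settings for strand, overlapping genes and multi-mapping reads are not given in the sources used here. Reads on overlapping genes and copies may be split or lost.

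Symbols and lengths came from GENCODE M21 (25664 of 25700 identifiers matched). Counts were scaled by TMM, filtered by gate and tested with edgeR 4.0.16 (quasi-likelihood, 12 libraries, gate as the only term, Benjamini-Hochberg, threshold 0.05) in R 4.3.3. The p-values measure the spread between the 4 libraries of a gate, in which differences between mice, those of sex included, and between library preparations cannot be told apart. The main fit leaves out the pairing by subject number. The length correction subtracted, in each library, a loess curve (span 0.3) of log2(CPM + 1) deviations from the mean over all libraries against log2 mean transcript length. Before use the edgeR fit was tested on simulated counts, drawn without a mouse effect or a shift common to short genes. Error rates under such a shift were not tested. Intervals were not needed, and the floor of 3 counts covers counting error only, since PCR copies are not independent molecules.

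The members and gene lists were chosen with earlier results of these data known. For mSC against nmSC, each list gave up to 4 named genes per direction, taken by size of change from those called and with a mean of 10 CPM or more, besides a few partners named in every case, and some genes of the lists are not reported here. The labels give the same subject number to 1 library of each gate, which pairs them. Their deviations from the gate means correlated by -0.49, 0.29, 0.26 and -0.30 between mSC and nmSC, by 0.54, 0.26, 0.19 and 0.18 between allSC and mSC, and by -0.21, 0.31, -0.09 and 0.13 between allSC and nmSC for mice 1 to 4. No libraries were duplicates (chi-square per degree of freedom of at least 4.03). Alternatives were other scalings and filters, DESeq2 1.42.0, the compared gates alone, the mouse as a block, another length for RPKM, and leaving out libraries.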

Additional observations from a re-analysis of the deposited data

Results flagged for a closer look

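S100a1 in the nmSC library of mouse 1 stood apart from the other 3 libraries of the gate, at 10.7 CPM, with a gap that took up 0.914 of the whole range of the gate. It was the only such library among 24 groups of 4 examined, the 8 members in 3 gates. Chance alone flags about 1 in 20 groups, so a single flag among 24 is not unusual. The short genes of that library deviated by 0.23 from the gate mean on the log2 scale, and their part in the value was not tested.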

How the results depend on the processing

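Of the differences between mSC and nmSC, those of S100b, S100a1 and S100a4 passed the test under every alternative, and S100a16 under all but the 2 that used library size. S100a6 lost its call with library size alone (0.47, adjusted p = 0.283), without the 50 top genes in it (0.68, 0.144), with upper quartile factors (0.93, 0.0596), with DESeq2's Wald test (1.18, 0.0509) and with the mouse as a block (1.02, 0.0828). The block changed no other call of a member. Scaling shifts all genes: their median was -0.16 as counted, -0.73 with library size alone, -0.54 without the 50 top genes in it and -0.30 with upper quartile factors. Relative to that median S100b stayed at 3.20 to 3.22 and S100a16 at 0.75 to 0.78 under these and DESeq2's size factors.

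Members called between mSC and nmSC numbered 3 without the 50 top genes in the library size (2 higher, 1 lower), and 4 with library size alone (2 higher, 2 lower). All genes called rose from 7540 as counted to 9828 without the 50 top genes and 11864 with library size alone. The share higher in mSC among genes called was 12.2% with library size alone and 20.6% without the 50 top genes. It was 50.3% as counted, 37.5% with upper quartile factors and 38.1% after the length correction. Between allSC and mSC 50.1% were higher as counted, 90.6% with library size alone and 81.5% without the 50 top genes. For allSC against nmSC, all genes called numbered 2951 with library size alone, 2899 with only the gates compared and 2938 without mSC libraries 1 and 4, from 1928, and the share higher, 72.7% as counted, was 25.2%, 42.7%, 58.7% and 50% with library size, without the 50 top genes, with upper quartile factors and after the length correction, and 60.4% with only the gates compared. Without mouse 1, 6 members were called between allSC and mSC, 1 higher and 5 lower in allSC. Among all genes 1656 were then higher and 1702 lower. Leaving out 1 library at a time, 4 to 7 members were called between mSC and nmSC, where all genes called numbered 6174 to 7990. Between allSC and mSC these were 2 to 6 members and 2205 to 4204 genes. Between allSC and nmSC they were 1 to 2 members and 1344 to 2785 genes.

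S100a11 changed sign between mSC and nmSC without mouse 1 (0.45), between allSC and mSC with library size (0.18), without the 50 top genes (0.075) and after the length correction without and with the block (0.24 and 0.24), and between allSC and nmSC without mouse 1 (0.037). Without single libraries it ranged from -0.63 to 0.16 for mSC against nmSC and from -0.48 to 0.26 for allSC against mSC. Between allSC and nmSC, library size turned S100a6 (-0.033), S100a10 (-0.14), S100a13 (-0.11) and S100a16 (-0.09), leaving out the 50 top genes turned S100a10 (-0.04) and S100a13 (-0.011), and without single libraries these 2 ranged from -0.004 to 0.42 and from -0.031 to 0.59. None of these values passed the test, and the cause was not tested.

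With the union of exons as length the RPKM of S100a4 was 67.1 in allSC, of S100a6 99.6 in allSC, of S100a10 58.7 in allSC and 53.6 in nmSC, and of S100a16 46.5, 63.5 and 41.3 in allSC, mSC and nmSC. With library size alone nmSC had 26.0 RPKM of S100b and 103 RPKM of S100a16. The 3 ratios of neighbours kept their sign without any library (1.47 to 1.77, 2.90 to 3.09 and 0.87 to 1.01). The position of allSC between the nmSC and mSC means ranged from 26.9% to 50.1% for S100a1, from 33.1% to 62.0% for S100a4, from 5.33% to 33.7% for S100a6 and from 16.6% to 39.8% for S100a16 without single libraries.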
